A study of Mus musculus with 18 samples.

Results

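The comparison described here set primary mouse chondrocytes kept at 1% oxygen (hypoxia) against the same kind of cells kept at 21% oxygen (normoxia), before any treatment. It used 6 of the 18 libraries of the series, chosen by their labels: 3 untreated hypoxia libraries at 0 h and 3 untreated normoxia libraries at 0 h. All 6 came from wild type cartilage cells grown in medium with serum. The 0 h point is the start of a 12 h period in serum-free medium in which other cells of the series were left untreated or given interleukin-6. How long the cells had been at each oxygen level before 0 h, the age of the mice and whether the replicates were separate animals or cultures are not stated by the labels. The p-values below therefore measure the spread between libraries within the 6 groups of the series, since all 18 libraries entered the fit, and that spread may be technical.

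Cartilage has no blood vessels, and chondrocytes, the cells that make and maintain its matrix, live in tissue where oxygen is low. When oxygen falls, cells stop degrading the alpha subunits of the hypoxia-inducible factors (HIF), transcription factors that then raise genes of glycolysis, glucose uptake, blood vessel growth and collagen processing. In cartilage the HIF pathway is known for its part in chondrocyte survival in the growth plate and in the making of cartilage matrix. Culture at 21% oxygen is the usual laboratory condition and is far above the oxygen level of the tissue itself.

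The deposited table lists UCSC transcript identifiers without gene symbols, and no gene table at hand pairs the 2. No gene, gene list or chondrocyte marker is therefore named, and the label of the cell type was not checked against markers. An identifier stands for a transcript, and 1 gene can have several. Reads that fell on overlapping transcripts made up 43.1% to 50.3% of the uniquely aligned reads of the 6 libraries and are not in the counts, so identifiers that share exons with others are measured from part of their reads. Assigned counts ran from 3088280 to 7238669 in hypoxia and from 5012398 to 9735866 in normoxia. The shallowest library, hypoxia replicate 3, also stood apart in composition. Its 10 most counted identifiers held 30.3% of assigned counts, against 15.7% and 13.7% in hypoxia replicates 1 and 2 and a mean of 16.9% ± 2.68 (SD, n = 3) in normoxia. The median absolute difference in log2 CPM (counts scaled to a library of 1000000) between library pairs was 0.25 for hypoxia replicates 1 and 2, and 0.57 and 0.63 for the pairs that include hypoxia replicate 3. In normoxia the 3 pairs gave 0.30 to 0.50. Sequencing lane differed too. Lane 3 held hypoxia replicate 1 and normoxia replicates 1 and 2, lane 6 hypoxia replicate 2, lane 8 hypoxia replicate 3 and lane 7 normoxia replicate 3.

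Many identifiers differed between hypoxia and normoxia before treatment began. Of 13432 identifiers tested, 286 rose and 379 fell in hypoxia at a Benjamini-Hochberg adjusted p under 0.05 by edgeR's quasi-likelihood test, together 665 or 4.95% of those tested (2.13% higher and 2.82% lower). In bulk RNA, fewer cells of a type and less RNA per cell cannot be told apart, so each value is a share of the RNA of the whole culture. More identifiers fell than rose, though not in every setting (with no low-count filter 398 rose and 359 fell), and the rises reached larger sizes. By the fitted fold change, 248 of the 286 identifiers that rose differed at least 2-fold, 100 at least 4-fold, 37 at least 8-fold and 12 at least 16-fold. These 12 include an identifier with 0 counts in normoxia, whose rise is bounded only at 14.8-fold or more. Among the 379 that fell, 266 differed at least 2-fold, 69 at least 4-fold, 17 at least 8-fold and 5 at least 16-fold. Called differences of at least 2-fold were 3.83% of those tested. The median log2 fold change, hypoxia over normoxia, was 1.64 for the identifiers that rose and -1.25 for those that fell, beside 0.04 over all 13432 tested. The plot of fold change against read abundance shows both sets spread over the whole range of abundance.

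**Figure D1:**
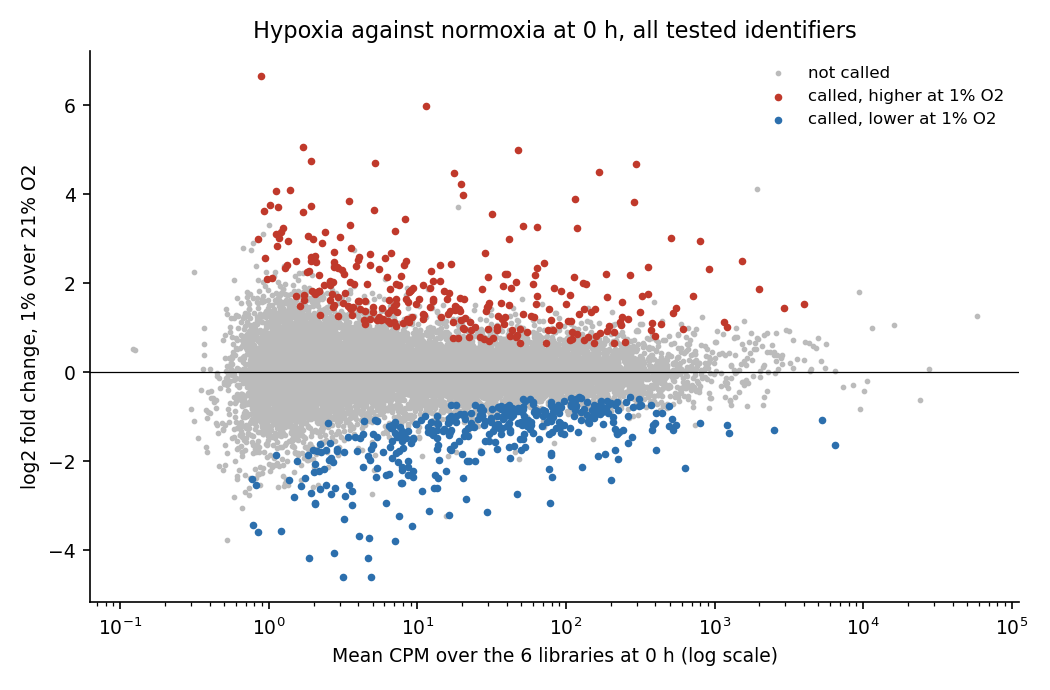
Log2 fold change at 0 h, 1% over 21% oxygen, against the mean CPM over the 6 libraries (log scale), 1 point per tested identifier. The 286 identifiers called higher in hypoxia reach farther from 0 than the 379 called lower, and calls of small fold change are seen only at higher CPM.

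The called identifiers held a modest share of all assigned counts. The identifiers that rose held 4.23%, 4.74% and 3.89% of assigned counts in hypoxia replicates 1, 2 and 3, against 1.46%, 1.72% and 1.59% in normoxia replicates 1, 2 and 3. Those that fell held 2.63%, 2.56% and 2.23% in hypoxia and 6.94%, 6.18% and 5.57% in normoxia. These shares describe lists chosen on the same libraries, so no test was made on them. Hypoxia replicate 3 lay at the low end of its group in both shares.

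By the rule for naming, 2 identifiers that rose are printed: the largest rise and the rise with the most reads, each with an average of 5 CPM or more over the 6 libraries, an adjusted p under 0.05 and no overlap between the groups. For uc007tbv.2, the largest rise, 135, 180 and 58 reads were counted in hypoxia replicates 1, 2 and 3, against 4, 3 and 1 in normoxia. Scaled for depth this was 19.0, 26.0 and 22.0 CPM in hypoxia and 0.787, 0.319 and 0.0950 CPM in normoxia. All 3 hypoxia libraries thus lay at a like level, including replicate 3, while the normoxia libraries lay near the limit of detection, since a count of 0 allows up to 3 counts, or 0.308 to 0.599 CPM in these libraries before TMM scaling (counting error only). The fitted log2 fold change was 5.99 with SE 0.49 (edgeR adjusted p = 2.19e-06).

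The rise with the most reads was uc009eml.1. It had 6644, 6826 and 4320 CPM in hypoxia replicates 1, 2 and 3, against 1417, 2539 and 2183 CPM in normoxia replicates 1, 2 and 3. The groups did not overlap, with the lowest hypoxia value in replicate 3 and the lowest normoxia value in replicate 1. Its mean was 5930 CPM ± 1397 (SD, n = 3) in hypoxia and 2046 CPM ± 573 (SD, n = 3) in normoxia. The log2 fold change was 1.54 with SE 0.32 (edgeR adjusted p = 0.00775). Without normoxia replicate 1 the call was lost, at a log2 fold change of 1.28 and an edgeR adjusted p of 0.0522. Over all settings its adjusted p ran from 3.77e-08 to 0.0976.

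Among identifiers that fell, uc008jfl.1 had the largest change by the same rule. It was counted 9, 5 and 2 times in hypoxia replicates 1, 2 and 3, against 52, 108 and 190 times in normoxia. This came to 1.27, 0.723 and 0.759 CPM in hypoxia, against 10.2, 11.5 and 18.05 CPM in normoxia. The groups lay far apart, and the spread within normoxia came mainly from the high replicate 3. The log2 fold change was -3.79 with SE 0.45 (edgeR adjusted p = 0.000136).

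The fall with the most reads was uc009vey.1. It had 3594, 3447 and 2421 CPM in hypoxia replicates 1, 2 and 3, against 11189, 10007 and 8324 CPM in normoxia replicates 1, 2 and 3. Its lowest normoxia library was well over its highest hypoxia library. The mean was 3154 CPM ± 639 (SD, n = 3) in hypoxia and 9840 CPM ± 1440 (SD, n = 3) in normoxia, and the log2 fold change -1.64 with SE 0.27 (edgeR adjusted p = 0.00158). CPM is not divided by transcript length, so the levels of the 4 identifiers are not compared with each other.

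**Figure D2:**
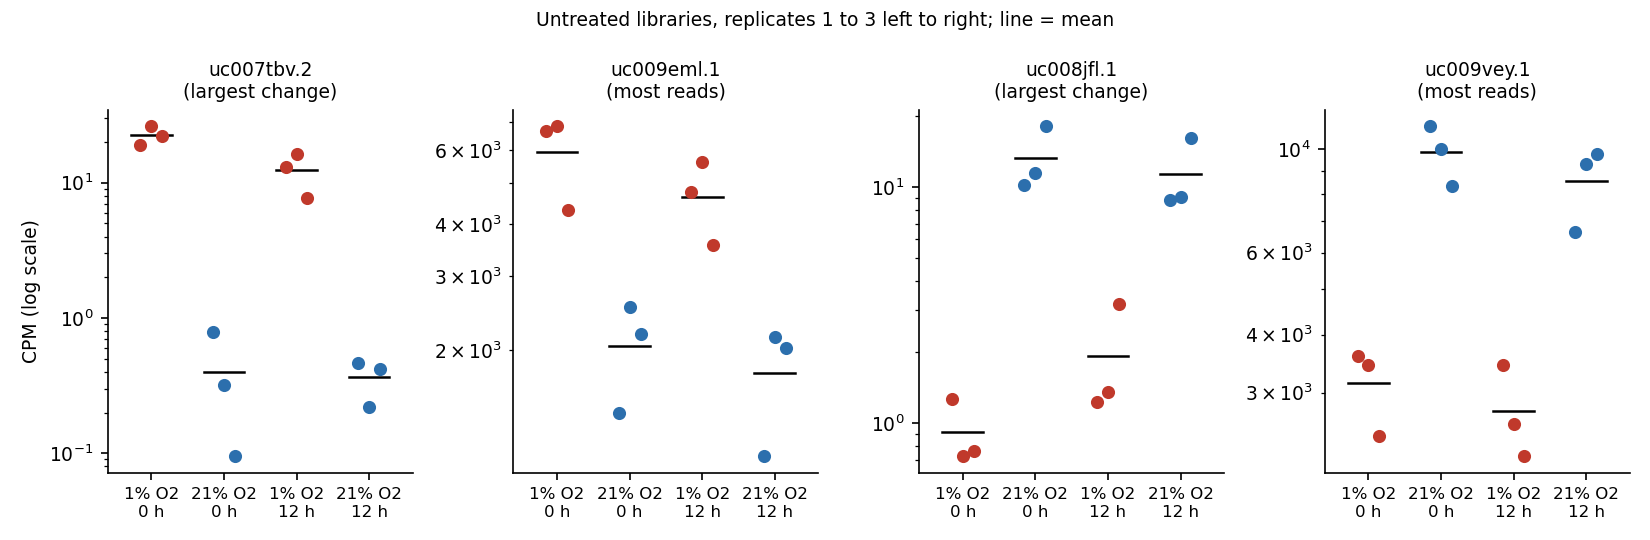
CPM on a log scale of the 4 named identifiers in each untreated library at 0 h and 12 h, with replicates 1 to 3 from left to right in each group and a line at the group mean. In each panel the 3 hypoxia libraries and the 3 normoxia libraries of the same time do not overlap, for example at 0 h 19.0 to 26.0 CPM against 0.0950 to 0.787 CPM for uc007tbv.2.

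The 12 largest rises by the same rule had log2 fold changes of 3.56 to 5.99, with mean levels of 9.40 to 571 CPM in hypoxia and 0.400 to 37.8 CPM in normoxia. Their edgeR adjusted p-values ran from 9.34e-08 to 0.0215. In 5 of these 12, hypoxia replicate 3 was over 2 times as high as both other hypoxia libraries. The rise of rank 4, for example, was at 94.2, 72.6 and 1546 CPM in hypoxia replicates 1, 2 and 3, against 33.4, 17.0 and 16.6 CPM in normoxia. Its hypoxia mean was thus set almost wholly by replicate 3, and its log2 fold change of 4.68 had an SE of 1.12. The rise of rank 5 was even by comparison, at 251, 264 and 440 CPM in hypoxia, against 14.6, 16.7 and 10.6 CPM in normoxia. It had the lowest adjusted p of all identifiers that rose, with a log2 fold change of 4.51 and SE 0.29 (edgeR adjusted p = 9.34e-08).

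The 12 largest falls by the rule had log2 fold changes of -3.79 to -2.61, with mean levels of 0.916 to 17.7 CPM in hypoxia and 10.9 to 137 CPM in normoxia. In 3 of the 12, hypoxia replicate 3 was under 0.5 times both other hypoxia libraries, and in 1 it was over 2 times as high as both. The fall with the lowest adjusted p had rank 5, at 5.49, 4.48 and 8.35 CPM in hypoxia replicates 1, 2 and 3, against 55.7, 57.9 and 43.7 CPM in normoxia. Its log2 fold change was -3.15 with SE 0.26 (edgeR adjusted p = 2.29e-06).

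A few identifiers were close to absent in 1 condition. One called identifier, too low in CPM for the naming rule and chosen after its values were seen, had 13, 11 and 5 counts in hypoxia and 0 in each of the 3 normoxia libraries. It was at least 14.8-fold higher in hypoxia, taking 3 counts over the whole normoxia group as the limit that a count of 0 allows. No called identifier was at 0 in all 3 hypoxia libraries. The largest fitted fall, also too low for the rule and chosen afterwards, had 0, 5 and 1 counts in hypoxia, against 63, 94 and 59 in normoxia, at an edgeR adjusted p of 0.000735.

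The 3 libraries of each group moved together for almost every called identifier. Of the 286 identifiers that rose, 285 had no overlap between the groups, and so had all 379 that fell. Over all tested identifiers, 10% were higher in hypoxia with no overlap and 11.9% were lower. The same contrast chose the called identifiers, so their lack of overlap is a description. The 1 called identifier with an overlap had 2.39, 2.02 and 0.380 CPM in hypoxia replicates 1, 2 and 3, against 0.393, 0.213 and 0.285 CPM in normoxia. There replicate 3, with 1 count, lay inside the normoxia range.

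Measured library by library against the normoxia mean, the identifiers that rose were higher by a median of 1.47, 1.59 and 1.53 on the log2 scale in hypoxia replicates 1, 2 and 3. Those that fell had medians of -1.24, -1.27 and -1.13. Each normoxia library set against the other 2 gave medians of -0.07, -0.0026 and 0.10 for the identifiers that rose and 0.11, 0.08 and -0.21 for those that fell. Hypoxia replicate 3 was like the other hypoxia libraries in its median on these lists. It helped to choose them, so this is a description and does not show that the library was like the others. Its middle range was the widest for the identifiers that rose, at 1.01 to 2.30, against 1.10 to 2.03 in replicate 1 and 1.14 to 2.17 in replicate 2. Replicate 3 was the farthest of the 3 from normoxia for 42.0% of the identifiers that rose and 38.8% of those that fell. Over all tested identifiers it was the highest of the 3 hypoxia libraries for 40.1% and the lowest for 47.0%. It lay at least 2-fold beyond both other hypoxia libraries for 29 of the 286 and 16 of the 379, and at least 2-fold short of both for 10 and 13.

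**Figure D3:**
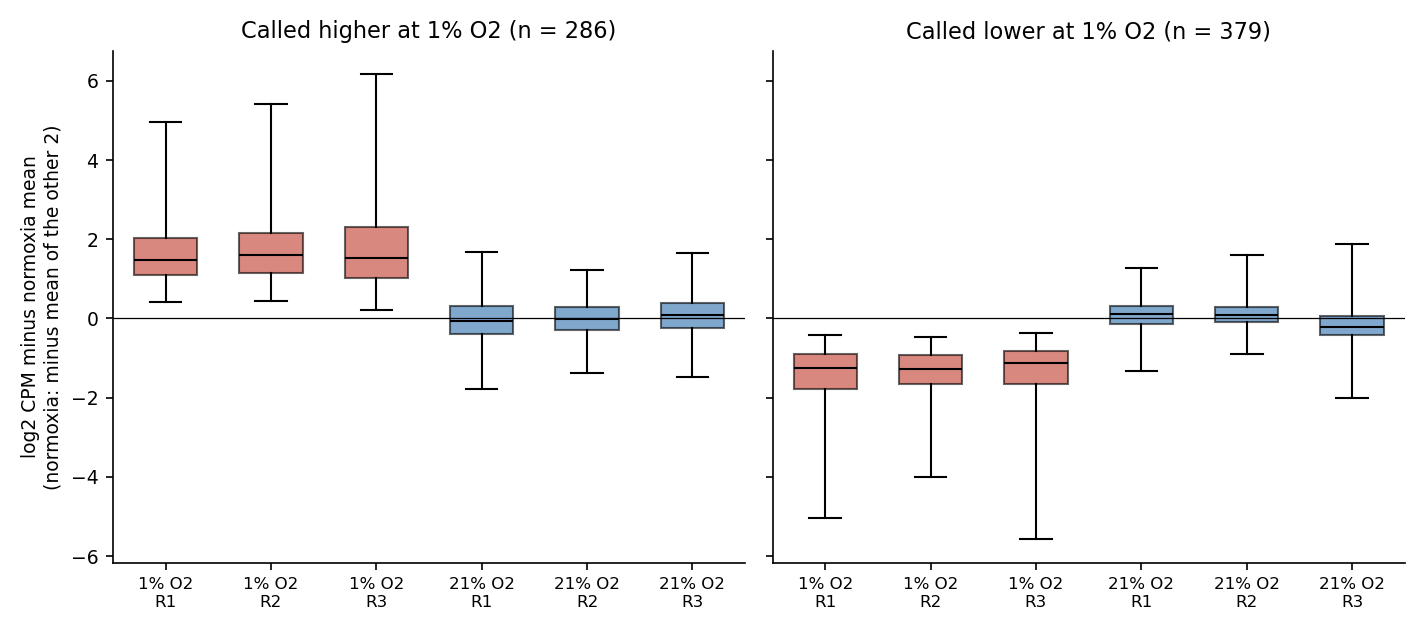
Log2 CPM of the called identifiers in each 0 h library minus the normoxia mean (for normoxia libraries, minus the mean of the other 2), with boxes from the lower to the upper quartile, a line at the median and whiskers to the lowest and highest value. All 3 hypoxia libraries lie on 1 side of 0, with medians of 1.47 to 1.59 for the 286 called higher and -1.27 to -1.13 for the 379 called lower, and the normoxia medians lie between -0.21 and 0.11.

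The share of identifiers called and the size of the called changes differed with read abundance. Below a mean of 1 CPM, 9 of 892 identifiers were called (1.01%), with a median SE of 0.74 among those tested and no call under an absolute log2 fold change of 2.10. From 1 to 5 CPM the share was 2.54%, 138 of 5425. It was 6.51% from 5 to 20 CPM, 7.31% from 20 to 100 CPM and 8.43% at 100 CPM or more, where the median SE was 0.25 and the smallest called change was 0.56. Among the 6317 identifiers below 5 CPM, no call of this fit fell under an absolute log2 fold change of 1.08. The balance of directions changed with abundance as well. Below 5 CPM, 89 called identifiers were higher in hypoxia and 58 lower, and at 5 CPM or more 197 were higher and 321 lower.

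Some called identifiers stood next to each other in the table. Among tested identifiers in the table's row order, 47 of the 286 that rose (16.4%) and 43 of the 379 that fell (11.3%) had a neighbour called in the same direction. The longest run was 3 identifiers in each direction. Of all tested identifiers 2.13% were called higher and 2.82% lower. The share of all tested identifiers with such a neighbour was not worked out. Whether such neighbours are transcripts of 1 gene was not tested.

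The 12 h untreated libraries show how the same identifiers stood after 12 h in serum-free medium. The 0 h contrast did not compare their levels. Like the libraries with interleukin-6, they did enter the fit and its estimate of spread, which helped to choose the called identifiers. A fit of the 0 h libraries alone called 310. Of the 286 that rose at 0 h, 283 were on the same side at 12 h, and of the 379 that fell, 378 were. Over all tested identifiers 74.1% had the same sign at both times. Taking the groups without overlap at 12 h, 232 of the 286 were higher in all 3 hypoxia libraries than in any normoxia library, beside 9.78% of all tested identifiers, and 351 of the 379 were lower, beside 12.8%. Within an oxygen condition, libraries with the same number shared deviations from the group mean at 0 h and 12 h, with correlations across identifiers of 0.23 to 0.43 in hypoxia and 0.47 to 0.66 in normoxia, and different numbers reached at most 0.18 and 0.04. The 12 h libraries are therefore not independent of those at 0 h. Their spread also entered the 0 h test, so its p-values may overstate the certainty. Apart from normoxia replicate 1, these same-numbered libraries also shared a sequencing lane. For them, replicate number and lane cannot be told apart.

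The larger the difference at 0 h, the more often it was called again at 12 h. The background there was 1.94% called higher and 3.57% called lower. Of identifiers that rose less than 2-fold at 0 h, 13 of 38 were called higher at 12 h, of those that rose 2- to 4-fold 76 of 148, and of those that rose at least 4-fold 72 of 100. For falls these counts were 75 of 113, 136 of 197 and 54 of 69. None was called in the opposite direction. The 12 identifiers with a fitted rise of at least 16-fold at 0 h had log2 fold changes of 2.53 to 6.15 at 12 h. Of these, 10 were called again. The value of 6.15 belongs to the identifier with 0 counts in normoxia at 0 h, whose 0 h rise is bounded only at 14.8-fold or more. The 5 that were at least 16-fold lower were all called again, at -7.32 to -3.16. Over the 6 libraries at 0 h these 5 averaged only 1.86 to 4.85 CPM. Of the 12 rises, 7 averaged 5 CPM or more. The 12 h values are fitted sizes, and no limit for low counts was worked out for them. The median log2 fold change of the risen identifiers was 1.30 at 12 h and 1.64 at 0 h, and that of the fallen identifiers -1.10 at 12 h and -1.25 at 0 h. The identifiers were picked at 0 h, which by itself favours larger values at 0 h. The test of the difference between the times, the oxygen by time interaction, gave 0 calls with edgeR and 0 with DESeq2. At an unadjusted p under 0.05 there were 260 of 13432 with edgeR (1.94% of those tested). That is below the share of 0.05 that this threshold passes when nothing differs. The test was thus conservative here, and its 0 calls carry little weight. With DESeq2 there were 381 among a larger set of 30721. Since same-numbered libraries deviated together across time, the interaction was also fitted with replicate number within each oxygen condition as a block, chosen after the results were seen. This fit had 1347 of 13432 at an unadjusted p under 0.05 by edgeR. It called 15 (0.112%), all with a lower 12 h difference, hypoxia over normoxia, than at 0 h. Of the 15, 6 were among the 665. Dropping replicate 3 from all groups gave 67, 33 higher and 34 lower, of which 11 were among the 15; dropping replicate 1 gave 1 and dropping replicate 2 gave 5. None of the 4 named identifiers was called (lowest edgeR adjusted p = 0.433). A missed threshold does not show that the times were alike.

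**Figure D4:**
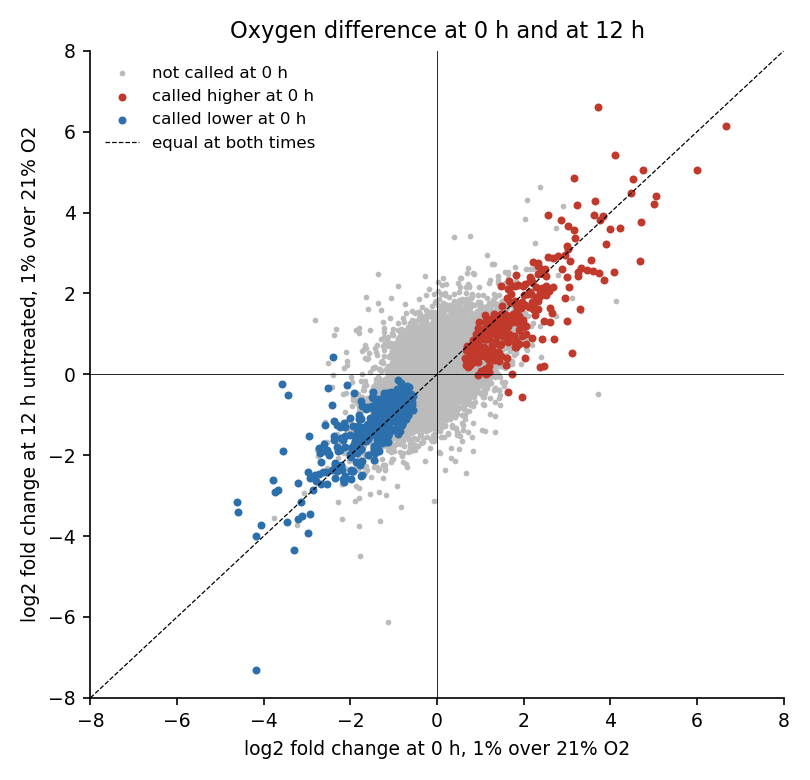
Log2 fold change, 1% over 21% oxygen, at 0 h (x axis) and at 12 h untreated (y axis), 1 point per tested identifier, with a dashed line where both are equal. Nearly all identifiers called at 0 h lie on the same side of 0 at 12 h, 283 of the 286 called higher and 378 of the 379 called lower.

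The 4 named identifiers also differed at 12 h, each with no overlap between hypoxia and normoxia. For uc007tbv.2 the 12 h level was 13.1, 16.2 and 7.72 CPM in hypoxia replicates 1, 2 and 3, against 0.462, 0.220 and 0.419 CPM in normoxia. The hypoxia level was lower than at 0 h in each library, and the groups again lay far apart, with a log2 fold change at 12 h of 5.05 (SE 0.48). For uc009eml.1 the 12 h level was 4760, 5623 and 3557 CPM in hypoxia, against 1119, 2154 and 2024 CPM in normoxia. Replicate 3 was again the lowest in hypoxia and replicate 1 the lowest in normoxia. For uc008jfl.1 the 12 h level was 1.23, 1.35 and 3.20 CPM in hypoxia, against 8.78, 9.03 and 16.1 CPM in normoxia. Its interaction estimate was 1.18 (SE 0.63), which did not pass the test (edgeR adjusted p = 1.00). For uc009vey.1 the 12 h level was 3440, 2577 and 2191 CPM in hypoxia, against 6635, 9278 and 9784 CPM in normoxia. Its log2 fold change was -1.65 at 12 h (SE 0.27), beside -1.64 at 0 h.

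The oxygen difference under interleukin-6 was on the same side as at 0 h for all 286 identifiers that rose and for 376 of the 379 that fell, beside 73.3% of all tested identifiers. Of these, 129 and 152 were called in the same direction, beside 1.34% and 1.56% of all tested identifiers. Counting both 12 h comparisons, 112 of the 286 (all 3 comparisons higher) and 146 of the 379 (all 3 lower) were called each time. The share of all tested identifiers called in both 12 h comparisons was not worked out. All 3 comparisons came from the same fit and its estimate of spread, so the calls are not independent. For uc009eml.1 the difference under interleukin-6 did not pass the test, at 0.89 on the log2 scale (SE 0.31, adjusted p = 0.170 by edgeR).

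The number of calls depended on which libraries and which covariates entered the fit, as the plot of calls by setting shows, while no identifier among the 665 was called in the opposite direction in any setting shown there. The count was 371 without hypoxia replicate 1, 398 without hypoxia replicate 2, 420 without normoxia replicate 1 and 356 without normoxia replicate 2. It was 656 without hypoxia replicate 3, and 527 of these were among the 665. With hypoxia replicate 3 left out of all 3 hypoxia groups, 946 were called, 347 higher and 599 lower, of which 581 were among the 665. With lane as a term the fit called 1914, 821 higher and 1093 lower, including 647 of the 665. Lane 8 held only hypoxia libraries, and lanes 2 and 7 only normoxia libraries. The lane term therefore left the oxygen difference to lanes 3 and 6. In lane 6 the only normoxia library had interleukin-6. The fit is thus no full adjustment for lane. With the libraries of lane 3 alone, and 1 residual degree of freedom, it called 91, of which 82 were among the 665. Within lane 3, hypoxia replicate 1 differed from the mean of normoxia replicates 1 and 2 in the stated direction for all 286 and all 379, with medians of 1.51 and -1.31, and the libraries of the other lanes gave 1.501 and -1.09. The same libraries chose the identifiers, so these are descriptions.

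**Figure D5:**
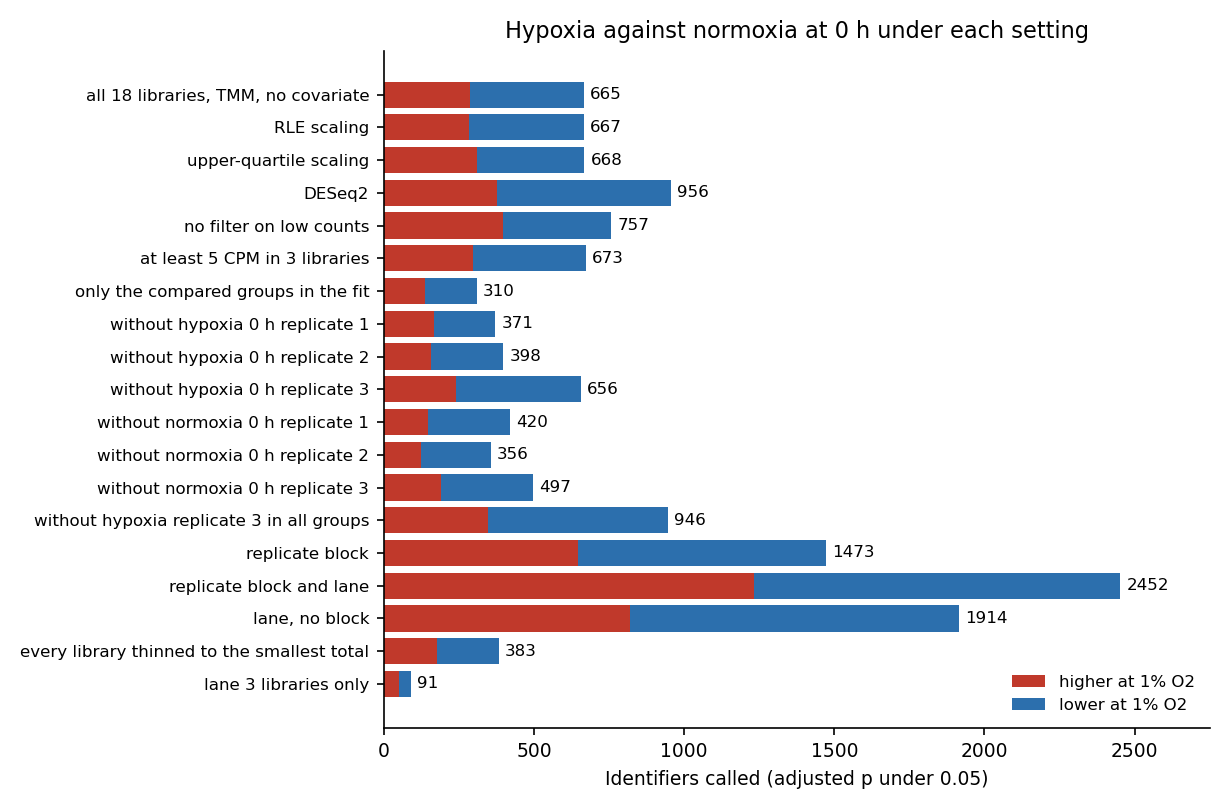
Number of identifiers called for hypoxia against normoxia at 0 h under each setting, with the part higher at 1% oxygen first and the part lower at 1% oxygen after it. The total runs from 91 with the libraries of lane 3 alone to 2452 with replicate number and lane as terms, beside 665 with all 18 libraries and no covariate.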

How the data were processed

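The deposited table holds raw read counts for 63244 UCSC transcript identifiers in 18 libraries, not normalized by the authors, and 5 HTSeq summary rows, which were left out of totals and tests (no-feature and ambiguous reads were 12.1% to 22.8% and 43.1% to 50.3% of uniquely aligned reads in the 6 libraries). Reads were aligned to mm10 with TopHat2 and counted with HTSeq, per the submitters' processing notes; versions and the strand setting are not given in the sources used here, so overlapping antisense transcripts may share reads. Ribosomal RNA was depleted, per the labels' protocols.

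edgeR 4.0.16 (R 4.3.3, limma 3.58.1) kept 13432 identifiers with filterByExpr by group, 99.5% to 99.7% of each library's counts, scaled libraries by TMM and fitted the robust quasi-likelihood model to all 18 libraries in 6 groups with no covariate (12 residual degrees of freedom). Same-numbered libraries of an oxygen condition deviated together, so these degrees of freedom are not fully independent. The threshold for a call was 0.05 on p-values adjusted by Benjamini and Hochberg over all tested identifiers. SE is the absolute log2 fold change over the square root of F. CPM use TMM-scaled library sizes, and per-library log2 values a prior count of 2. DESeq2 1.42.0 and the other settings of the closing section were alternatives. The fit was also run on simulated data with known changes in the hypoxia 0 h libraries. It recovered 17 of 100 identifiers changed 2-fold and 67 of 100 changed 4-fold, all in the right direction. Of its 86 calls, 2 were false. Most changes of 2-fold were thus missed there. Of the 13432 identifiers simulated, 13017 passed the filter and were tested. The simulated counts were drawn independently, with a spread set by abundance alone. The real libraries share deviations by number, so the false calls of the simulation do not measure those of the real data. Within groups, library pairs differed beyond sampling noise (chi-square per degree of freedom 15.3 to 149), so no library was taken as a duplicate.

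The rule for naming took, in each direction, the largest change and the most reads from identifiers that were called, averaged 5 CPM or more and had no overlap (for the latter also at least 2-fold). At most 2 identifiers a direction are printed, since they carry no gene names. The members, lists and rules were chosen with earlier results of these data known.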

Additional observations from a re-analysis of the deposited data

Results flagged for a closer look

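With replicate number within each oxygen condition as a block, the difference between hypoxia and normoxia at 12 h differed from that at 0 h for 15 identifiers by the interaction test in edgeR (adjusted p under 0.05). All 15 had a lower hypoxia over normoxia difference at 12 h than at 0 h. The test without the block called 0, and when replicate 3 was dropped from all groups the blocked test called identifiers in both directions (33 higher, 34 lower).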

How the results depend on the processing

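Against the 665 identifiers called at 0 h, a fit of the 6 libraries alone (4 residual degrees of freedom) called 310, and there were 383 with every library thinned to the smallest total, 1914 with lane and no block, and 91 with the libraries of lane 3 only. Leaving out 1 of the 6 libraries gave 356 to 656. RLE scaling, upper-quartile scaling, DESeq2, no filter on low counts, a minimum of 5 CPM in 3 libraries, hypoxia replicate 3 left out throughout, and the 2-fold minimum (514) stayed within 1.5 times. Rises outnumbered falls without a filter (398 and 359), with the replicate block and lane (1233 and 1219) and with lane 3 only (51 and 40), against 286 and 379 in the reported fit. The cause of these differences was not tested. Same-numbered hypoxia and normoxia libraries at 0 h had correlations of -0.03, 0.32 and 0.10, and replicate 2 alone correlated best with its own number in both directions. The reported fit did not take the numbers as pairs, but such correlations from few libraries cannot exclude a pairing. The column names give same-numbered libraries of both oxygen conditions the same prefix, and what it stands for is not stated. The replicate block gave 1473 calls, including 664 of the 665, and the replicate block and lane 2452.

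The oxygen by time interaction called 0, but 3 with no filter on low counts 1 with the replicate block and lane, and 15 with the replicate block within oxygen, or 1 to 67 when that block was fitted without replicate 1, 2 or 3. Leaving out any 1 of the 12 libraries with no block gave 0. Unadjusted p-values under 0.05 numbered 260 with no block, 512 when blocked by replicate number, 744 when lane was added to that, and 1347 when blocked within oxygen. The log2 fold changes of the 4 named identifiers kept their sign in every setting. They ran from 4.91 to 6.63 for uc007tbv.2, 1.28 to 1.90 for uc009eml.1, -4.20 to -3.10 for uc008jfl.1 and -1.79 to -1.46 for uc009vey.1. With lane 3 only, the calls of uc009eml.1 (edgeR adjusted p = 0.0976) and uc009vey.1 (edgeR adjusted p = 0.291; 1.51e-07 to 0.291 over all settings) were lost. Thinning to the smallest total, in a single random draw, gave 383 calls with 10556 identifiers tested, against 665 with 13432 tested. The effect of depth apart from this change in the tested set was not tested.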
